A study of Macaca mulatta with 2 samples.

Results

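CCR9+ helper-like cells are a small class among the double-positive (DP, CD4+CD8+) T cells in rhesus monkey blood. They were selected on their own RNA counts. A cell belonged to the class when it held at least 1 UMI of *CCR9*, at least 1 UMI of *CD3D*, *CD3E* or *CD3G*, and no UMI of *FOXP3* or *CCR6*. A UMI, or unique molecular identifier, stands for 1 captured RNA molecule. In all, 380 of 7601 kept cells met the rule, or 4.999% (4.52 to 5.51). They were compared with 6964 kept T cells that had CD3 UMIs and no *CCR9* UMI, called CCR9-zero T cells below. Because the rule reads the same counts as every other gene, RNA differences between these groups are given as descriptions, with no test.

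The study sorted DP T cells from the peripheral blood of 1 healthy, untreated *Macaca mulatta* of 6 years, first with releasable CD4 beads and then with CD8 beads. The cells were labelled with antibody tags against CD4 and CD8 and run on the 10x Genomics platform. RNA and tags were read as 2 libraries from the same cells, and all 7923 deposited barcodes had UMIs in both. There was 1 animal and 1 library of each kind, so no replicate error could be given and no test between samples was possible. Every interval is an exact 95% Poisson interval for a level or ratio of levels and an exact Clopper-Pearson interval for a share, and covers counting error only. Levels are the summed counts of a group per 1000000 UMIs (CPM), and ratios are on the log2 scale.

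CCR9 is the chemokine receptor for CCL25, which is made in the small intestine and the thymus. T cells primed in gut lymphoid tissue gain CCR9 under retinoic acid, together with the integrin α4β7, a pair of the *ITGA4* and *ITGB7* products that binds MAdCAM-1 on gut vessels. The α4 chain can also pair with β1, the *ITGB1* product, which then binds VCAM-1.

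*CCR9* and *LZTFL1*, which encodes a ciliary transport regulator, lie near each other on chromosome 2 of the Mmul_10 assembly. *CCR9* spans chr2:101888276-101907994 on the plus strand and *LZTFL1* spans chr2:101823807-101843715 on the minus strand, with 44560 bases between them and no overlap. The 250 bases before each annotated gene start are shown because both genes marked the selected cells, and the intervals are chr2:101888026-101888275 and chr2:101843716-101843965. They were read on the strand of the gene from the RefSeq build.
CCR9: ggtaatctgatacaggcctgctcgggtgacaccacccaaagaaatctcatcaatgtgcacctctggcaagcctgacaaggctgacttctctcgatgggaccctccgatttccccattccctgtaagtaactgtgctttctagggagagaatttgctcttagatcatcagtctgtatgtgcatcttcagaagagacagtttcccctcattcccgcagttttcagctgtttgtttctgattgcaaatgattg
LZTFL1: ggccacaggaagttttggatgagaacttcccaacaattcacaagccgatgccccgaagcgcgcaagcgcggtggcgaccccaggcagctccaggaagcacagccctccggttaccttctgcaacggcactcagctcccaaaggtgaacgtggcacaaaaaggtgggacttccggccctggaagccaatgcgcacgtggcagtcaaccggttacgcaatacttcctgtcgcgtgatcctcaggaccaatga
The nuclear receptor half-site AGGTCA, which would be in capitals, was searched on both strands and had 0 matches in these windows and in the same windows of *ICAM2*, *ITGA1* and *SOCS2*. Of 20787 promoter windows of this length, 12.9% held it, so these letters are simply not in these 250 bases. The GC content was 47.2% before *CCR9* and 58.8% before *LZTFL1*.

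The rule can be followed step by step. A *CCR9* UMI was found in 486 kept cells, and 5 of these had no CD3 UMI. Of the other 481, 97 had a *CCR6* UMI, 7 had a *FOXP3* UMI and 3 had both, which left 380. Most members sat close to the threshold, with 207 cells (54.5%) at 1 *CCR9* UMI, 102 (26.8%) at 2, 40 at 3, and 31 with more, up to 8 in 1 cell. *CCR9* was 345.5 CPM in the class (320 to 372, 690 UMIs), a level the rule fixed.

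Depth differed between the groups. The members had a median of 4665 UMIs per cell (quartiles 3825 and 5980, range 766 to 16975) and 1997369 UMIs in all, while the CCR9-zero T cells had a median of 3576 (2951 and 4600) and 27822260 UMIs in all. A rule that asks for a UMI favours deep cells, so shares of cells were also computed after thinning each cell to 2000 UMIs, which left 361 members and 6551 CCR9-zero T cells. After thinning, 59.3% of the members (54.0 to 64.4) kept a *CCR9* UMI. A cell without a *CCR9* UMI is therefore not shown to lack *CCR9* RNA at this depth.

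Free RNA was gauged in cells that should lack the gene. Among CX3CR1+GZMB+ T cells, a cytotoxic gate, 17 of 1244 had a *CCR9* UMI, or 1.37% (0.505% thinned, 0.185 to 1.095), at a median depth of 3420 UMIs. Among the B gene cells, which had no CD3 UMI and at least 3 UMIs of 7 B cell genes, 3 of 86 had one, or 3.49% (1.27% thinned), at a median depth of 4138. All kept T cells together had 6.46% (5.91 to 7.04), or 3.78% thinned (3.35 to 4.25), at a median of 3640. The share in T cells was thus above that in the cytotoxic gate at equal depth, and its interval overlapped that of the few B gene cells (0.0320 to 6.85 thinned).

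Across 9922 genes with at least 50 UMIs in either group, 88 were at least 1.5-fold higher in the CCR9+ cells (0.887% of genes tested) and 384 were at least 1.5-fold lower (3.87%), on the scale of CPM plus 10. The genes of the rule were left out, and the median log2 ratio over all genes tested was -0.07. The rule used this contrast, so the counts of list members set beside these shares are a description. Lists were also counted in a pair of narrower comparisons. With cytotoxic cells left out, meaning cells with a *CX3CR1* or *GZMB* UMI in either group, 336 members stood against 3663 cells, and 44 of 8965 genes were higher (0.491%) and 145 lower (1.62%). Against the 6356 CCR9-zero T cells with no *FOXP3* or *CCR6* UMI, 111 of 9746 were higher (1.14%) and 424 lower (4.35%).

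The 4 marker genes that had been named with *CCR9* were all higher. *ICAM2*, an adhesion ligand for the integrin LFA-1 on leukocytes and endothelium, was at 263.8 CPM (242 to 287) against 116 CPM (112 to 120), a log2 ratio of 1.19 (1.05 to 1.32). *ITGA1*, the α1 chain of a collagen receptor, was at 68.1 CPM (57.1 to 80.5) against 21.6 CPM (19.9 to 23.4), a ratio of 1.66 (1.38 to 1.93). *SOCS2*, a feedback inhibitor of cytokine signalling, was at 63.1 CPM (52.6 to 75.1) against 17.1 CPM (15.6 to 18.7), a ratio of 1.88 (1.59 to 2.17).
*LZTFL1* was at 49.1 CPM (39.8 to 59.8) from 98 UMIs against 6.07 CPM (5.19 to 7.06), a ratio of 3.01 (2.64 to 3.38), and on the scale of CPM plus 10 it had the largest ratio of the genes tested, 1.88. In thinned cells, *ICAM2* was detected in 41.3% of the members against 17.0%, *SOCS2* in 11.6% against 2.53%, *LZTFL1* in 10.5% against 1.04%, and *ITGA1* in 9.70% against 3.31%. These marker genes were chosen for being high in *CCR9* cells of these data, so their higher levels here only describe the class. Even without thinning, no marker but *ICAM2* was seen in most members. *ICAM2* was then in 68.9% of them, *ITGA1* in 25.5%, *SOCS2* in 23.9% and *LZTFL1* in 21.1%. Reads of *ICAM2* and *PRR29*, which overlap by 1722 bases on opposite strands, and of *ITGA1* and *PELO*, which lies within it on the same strand, may not be fully separable. *PRR29* had 13.5 CPM against 2.80 and *PELO* had 35.0 CPM against 18.3.

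Cells just inside and just outside the threshold differed in these genes. Among T cells with no *FOXP3* or *CCR6* UMI, *LZTFL1* was at 5.56 CPM in 6356 cells with 0 *CCR9* UMIs, 43.5 CPM with 1, 44.2 CPM with 2 and 72.5 CPM in 71 cells with 3 or more. *ICAM2* was at 110.5, 237, 288 and 309 CPM in the same order. The intervals of *ICAM2* at 2 and at 3 or more overlapped. *SOCS2* had no steady order, at 15.4, 52.5, 99.9 and 42.9 CPM, and neither had *ITGA1*, at 19.6, 70.7, 49.9 and 85.9 CPM. Members with 1 *CCR9* UMI were thus nearer in *ICAM2* and *LZTFL1* to those with 2 than to cells with 0, which did not hold for *SOCS2*.

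**Figure D1:**
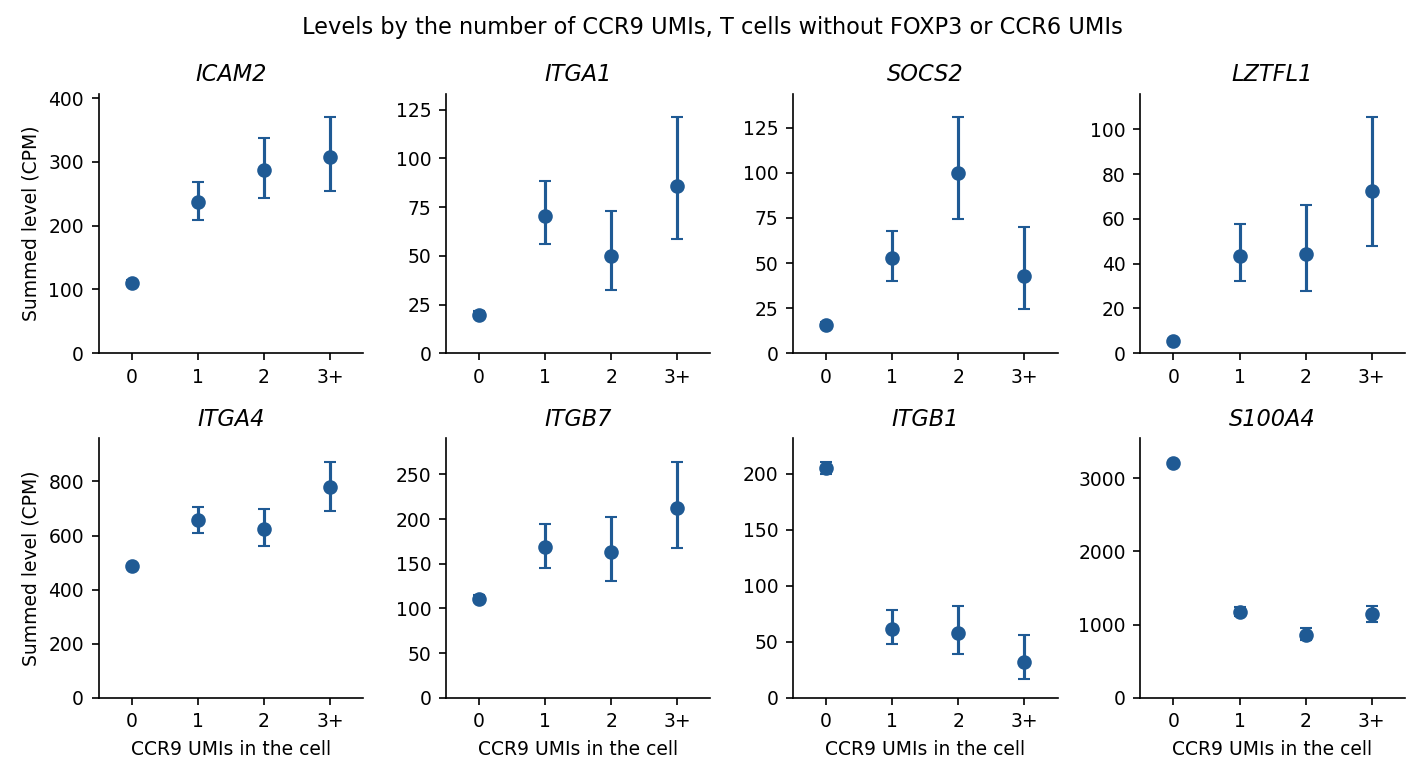
Summed level in CPM (vertical axes, from 0) of 8 genes in T cells without *FOXP3* or *CCR6* UMIs, by the number of *CCR9* UMIs in the cell (0, 1, 2, 3 or more; horizontal axes). Points are levels and bars exact 95% Poisson intervals; *ICAM2*, *ITGA1*, *SOCS2*, *LZTFL1*, *ITGA4* and *ITGB7* lie higher and *ITGB1* and *S100A4* lower in all classes with a *CCR9* UMI than in cells with 0.

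Read from the other side, *CCR9* was found more often in cells that held its companions. In thinned T cells with no *FOXP3* or *CCR6* UMI, 81 of 4885 cells with none of *ICAM2*, *ITGA1*, *SOCS2* and *LZTFL1* had a *CCR9* UMI (1.66%, 1.32 to 2.06). The share was 7.83% (6.42 to 9.44) of 1277 cells with 1 of the 4 genes, 18.4% (12.5 to 25.6) of 147 cells with 2, and 6 of 14 cells with 3 or 4 (42.9%, 17.7 to 71.1).
By single gene, the thinned share was 27.4% (18.7 to 37.5) in cells with *LZTFL1* against 3.02% without it, 14.2% against 3.08% for *SOCS2*, 10.3% against 3.14% for *ITGA1* and 8.77% against 2.21% for *ICAM2*. Even among the cells with *LZTFL1*, most had no *CCR9* UMI at this depth. The 4 genes were themselves chosen for being high in *CCR9* cells, so these shares describe how closely they travel with it and no more.

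**Figure D2:**
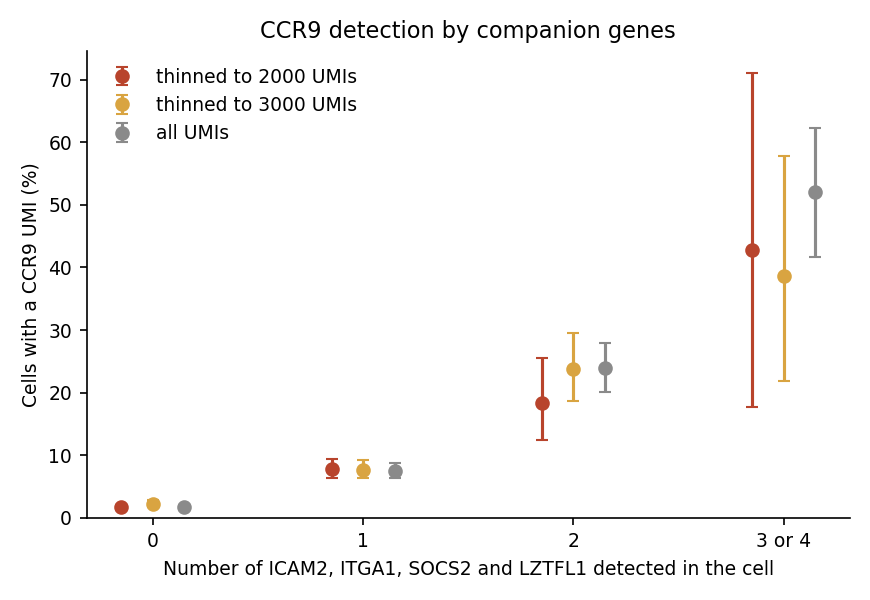
Share of T cells without *FOXP3* or *CCR6* UMIs that held a *CCR9* UMI (vertical axis, percent), by how many of *ICAM2*, *ITGA1*, *SOCS2* and *LZTFL1* were detected (horizontal axis), with cells thinned to 2000 or 3000 UMIs or with all UMIs. Points are shares and bars exact 95% binomial intervals; the thinned share went from 1.66% with 0 companions to 42.9% with 3 or 4.

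The members were not uniform in their companions. Of the 380 cells, 70 held none of the 4 genes, 146 held 1, 113 held 2 and 51 held 3 or 4, with median depths of 3940, 4624, 4964 and 5108 UMIs. *CST7*, a granule protease inhibitor, was at 229 CPM (178 to 290) in the 70 cells with none and at 106 CPM (73.1 to 149) in the 51 cells with 3 or 4. *NKG7*, another granule gene, also differed, at 296 CPM (237.5 to 365) and 164 CPM (122 to 216). The granzyme gene *GZMB* was at 229 CPM (178 to 290) and 193 CPM (147 to 248), with intervals that overlap. *ITGA4* was at 606 CPM (521 to 701) and 662 CPM (575 to 759), which overlap. *S100A4* was likewise level, at 1124 CPM and 1000 CPM with intervals that overlap. The level of *S100A4* was therefore low in members with and without companion genes.

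Among the genes of gut homing, 9 of 11 were abundant enough to test, with 0 called higher and 1, *ITGB1*, lower (median log2 ratio 0.13). The integrin chains differed in opposite directions. *ITGA4* was at 671 CPM (635 to 708) against 484 CPM (476 to 493), a ratio of 0.47 (0.39 to 0.55), and *ITGB7* was at 175 CPM (157 to 195) against 115 CPM (112 to 119), a ratio of 0.60 (0.44 to 0.76). Both were higher beyond counting error, and neither reached the 1.5-fold limit on the scale of CPM plus 10. *ITGB7* was called higher against cells with no *FOXP3* or *CCR6* UMI, and *ITGA4* with cytotoxic cells left out, so each narrower comparison had 1 gene of the 9 higher.
*ITGB1* was at 55.1 CPM (45.3 to 66.4) against 208 CPM (203 to 213), a ratio of -1.92 (-2.20 to -1.65). A UMI of both *ITGA4* and *ITGB7* was found in 20.5% of thinned members (16.45 to 25.04) against 10.3% (9.58 to 11.1), and a UMI of *ITGB1* in 8.59% (5.91 to 12.0) against 24.8% (23.7 to 25.8). In T cells with a *CCR6* UMI and no *CCR9* or *FOXP3* UMI, *ITGB7* at 156 CPM (141 to 172) had an interval that overlapped that of the members. *GPR55*, a receptor found on intestinal lymphocytes, had only 8 UMIs, or 4.01 CPM (1.73 to 7.89), against 0.324 CPM (0.148 to 0.614). *ITGAE*, the αE chain of gut-resident T cells, was at 48.6 CPM (39.4 to 59.2) against 42.4 CPM (40.0 to 44.9), and *CCR10*, a skin and mucosal homing receptor, had 0 UMIs, with an exact upper limit of 1.85 CPM.

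Of 7 tested genes of retinoic acid signalling among 15 listed, 2 were called higher and 0 lower, with a median of -0.17. *LZTFL1*, which is known to respond to retinoic acid in T cells, was one, and *NRIP1*, a nuclear receptor corepressor, was the other, at 29.0 CPM (22.1 to 37.5) against 15.2 CPM (13.8 to 16.7). *RARA*, the receptor itself, was at 14.5 CPM (9.72 to 20.9) against 20.3 CPM (18.7 to 22.1), and *DHRS3*, a retinal reductase, at 62.1 CPM (51.6 to 74.0) against 54.9 CPM (52.2 to 57.7). The intervals overlapped for both. *NRIP1* was no longer called with cytotoxic cells left out, when 1 of 7 was higher.

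Of 7 tested genes that lie near *CCR9*, 1 was called higher, *LZTFL1*, and 1 lower, *CCR2* (median -0.18). *SACM1L*, a lipid phosphatase gene 141273 bases away, was at 28.5 CPM (21.6 to 37.0) against 33.6 CPM (31.5 to 35.9). *FYCO1*, an autophagy adaptor gene 14627 bases away, was at 9.51 CPM (5.73 to 14.9) against 11.3 CPM (10.0 to 12.6). *CXCR6*, a tissue-homing receptor 40260 bases away, was at 4.01 CPM (1.73 to 7.89) against 9.45 CPM (8.35 to 10.7). *CCR2* was not called in either narrower comparison.

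In the wider list of integrins and adhesion molecules, 3 of 18 tested genes were called higher (*ICAM2*, *ITGA1* and *PECAM1*) and 4 lower, among them *ITGAL*, *ITGB2* and *SELPLG*, with a median of -0.33. *PECAM1*, CD31 on resting T cells and endothelium, was at 115 CPM (101 to 131) against 69.1 CPM (66.0 to 72.2). *ITGB2*, the β2 chain of LFA-1, was at 113 CPM (98.4 to 128) against 315 CPM (308 to 322), and *ITGAL*, its α chain, at 72.1 CPM (60.8 to 84.9) against 148 CPM (144 to 153). The cells thus carried more RNA for the ligand *ICAM2* and less for both chains of its receptor. With cytotoxic cells left out, the log2 ratio of *ITGB2* went from -1.48 to -0.71 (-0.95 to -0.48), and *ITGAL* went from -1.04 to -0.37 (-0.66 to -0.09). *ITGAL*, *SELPLG* and *PECAM1* were then no longer called.

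Of the chemokine receptor and egress genes, 0 of 11 tested were higher and 5 were lower (median -0.45). *CX3CR1*, a receptor of cytotoxic T cells, was at 8.51 CPM (4.96 to 13.6) against 69.5 CPM (66.4 to 72.6), and *CXCR5*, the B cell follicle homing receptor, at 6.51 CPM (3.47 to 11.1) against 15.4 CPM (14.0 to 16.9). *S1PR5*, *KLF3* and *CCR2* were also called lower. Only *CXCR5* of 8 tested was lower with cytotoxic cells left out. *CCR7*, the lymph node homing receptor, was at 169 CPM (151 to 188) against 144 CPM (139 to 148), a difference that turned to a log2 ratio of -0.39 (-0.56 to -0.22) with cytotoxic cells left out, and *S1PR1*, which guides exit from lymphoid tissue, was at 244 CPM (223 to 267) against 223 CPM (217 to 228).

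Of 18 tested genes of the SOCS and STAT families, *SOCS2* was called higher and 0 were lower (median -0.09). *CISH* was called higher as well against cells with no *FOXP3* or *CCR6* UMI, and *SOCS3* was called lower with cytotoxic cells left out. *CISH*, a cytokine-induced inhibitor, was at 19.0 CPM (13.5 to 26.1) against 9.49 CPM (8.38 to 10.7), *SOCS1* at 35.1 CPM (27.3 to 44.3) against 42.3 CPM (39.9 to 44.8), and *SOCS3* at 22.0 CPM (16.0 to 29.6) against 33.6 CPM (31.5 to 35.8).
Among 20 tested cytokine receptors, *IFNGR2*, a chain of the interferon-γ receptor, was higher at 50.1 CPM (40.7 to 60.9) against 25.3 CPM (23.4 to 27.2), and 5 were lower (median -0.25). *IL7R*, the survival receptor of resting T cells, was at 1575 CPM (1521 to 1631) against 1106 CPM (1093 to 1118), under the 1.5-fold limit. *TGFBR3*, a TGF-β coreceptor, was at 17.0 CPM (11.8 to 23.8) against 146 CPM (142 to 151), a ratio of -3.10 (-3.64 to -2.62). *IFNGR2* was no longer called with cytotoxic cells left out, when 0 of 19 receptors were higher and 5 lower. Of 5 tested efflux transporters, 0 were higher and 1, *ABCA1*, was lower (median -0.19), a call that ended with cytotoxic cells left out, while *ABCB1*, the multidrug pump, was too sparse to test, with 13 UMIs or 6.51 CPM (3.47 to 11.1) against 0.431 CPM (0.223 to 0.753).

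Among genes with a symbol, the 15 with the largest ratios of CPM plus 10 held 11 besides *LZTFL1*, *SOCS2*, *ITGA1* and *ICAM2*. *RHOB*, a small GTPase of endosome traffic, was at 94.6 CPM (81.6 to 109) against 28.4 CPM (26.4 to 30.4), a ratio of 1.74 (1.502 to 1.969). *RCAN3*, a regulator of calcineurin, was at 162 CPM (145 to 180) against 70.7 CPM (67.6 to 73.9), a ratio of 1.19 (1.02 to 1.36). *EVA1C*, a membrane glycoprotein gene, had a ratio of 1.85 (1.54 to 2.14).
They spanned several roles and no fixed list. *THY1*, the surface protein CD90, was at 102 CPM (88.1 to 117) against 46.0 CPM (43.5 to 48.6), and *SYNE2*, a nuclear envelope linker, at 130.2 CPM (115 to 147) against 61.7 CPM (58.8 to 64.7). *ANK3*, a membrane scaffold, had 47 UMIs and a ratio of 2.01 (1.51 to 2.48). The ratios of the enzymes *DSE*, *NIT2*, *BLVRA* and *UPP1* were 1.70, 1.48, 1.36 and 1.24, and that of *BAIAP3*, a gene of vesicle release, was 1.83. *BAIAP3*, *BLVRA* and *THY1* overlap other annotated genes on the opposite strand. Each of these genes was detected in a minority of members, apart from *ICAM2* and *RCAN3* (53.4%).

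**Figure D3:**
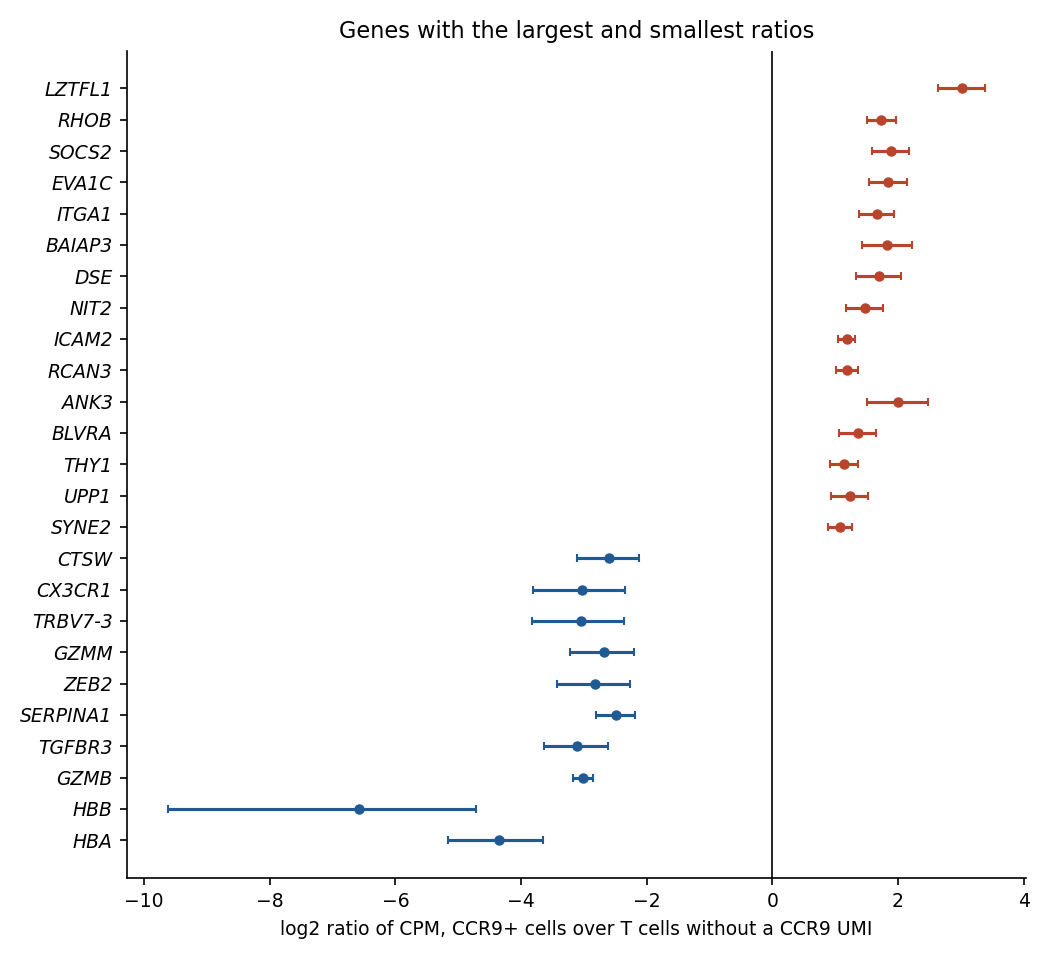
log2 ratio of CPM, CCR9+ cells over CCR9-zero T cells (horizontal axis), for the 15 genes with the largest and the 10 with the smallest ratio of CPM plus 10 among tested genes with a symbol (vertical axis, ordered by that ratio). Points are ratios and bars exact 95% intervals for counting error; the higher genes run from 1.08 for *SYNE2* to 3.01 for *LZTFL1*, and *HBB* has the widest bar, from 2 UMIs.

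Genes of cytotoxic cells were lower in the members. Of 20 tested genes of the cytotoxic list, 19 were called lower and 0 higher, with a median log2 ratio of -1.72, and the list as a whole was at 1077 CPM against 4685 CPM. *GZMB*, the granule protease granzyme B, was at 167 CPM (149 to 186) against 1341 CPM (1328 to 1355), a ratio of -3.01 (-3.17 to -2.85). Members with 1 *CCR9* UMI had 239 CPM of *GZMB* (211 to 270). Those with 2 had 63.4 CPM (43.6 to 89.0), and those with 3 or more had 96.6 CPM (67.65 to 134). The 333 *GZMB* UMIs of the members lay in 43 cells, with up to 37 in 1 cell. These intervals do not cover that spread between cells. *NKG7*, a granule membrane protein gene, was at 227 CPM (206 to 249) against 906 CPM (895 to 917). *IFNG*, the Th1 cytokine gene, had 0 UMIs, against 8.05 CPM (7.03 to 9.18).
The share of cells with a *GZMB* UMI differed between the groups. In thinned cells a *GZMB* UMI was found in 8.86% of the members (6.14 to 12.3) and 43.7% of the CCR9-zero T cells (42.5 to 44.9). At 3 or more *GZMB* UMIs the shares were 3.32% (1.73 to 5.73) and 35.2% (34.1 to 36.4). Free *GZMB* RNA was not gauged, so a single UMI need not mark a cytotoxic cell. With cytotoxic cells left out, *NKG7* had a ratio of -0.76 in place of -2.00 and *CST7* -0.82 in place of -2.07. The ratios of *LZTFL1*, *SOCS2*, *ITGA1* and *ICAM2* were then 2.40, 1.40, 1.196 and 0.72, smaller than before and in the same order. *PECAM1* was at 0.19 and *LEF1* at -0.08, against 0.74 and 0.59 with all cells, and *CCR7* turned from 0.23 to -0.39. *ITGB1* was at -2.48 and *ITGA4* at 0.64, farther from 0 than with all cells, while *ITGB7* was at 0.46 (0.28 to 0.63) in place of 0.60 and *S100A4* at -0.98. Of 14 cytotoxic genes then tested, 8 were still called lower (median -0.68).

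*HBA* and *HBB*, the globin genes, headed the lower genes, and 1 cell held most of the UMIs of each. Of the 2659 *HBB* UMIs in CCR9-zero T cells, 2649 were in 1 cell, and of the 4542 *HBA* UMIs, 3270 were in 1 cell. *HBA* was not confined to that cell, as 871 CCR9-zero T cells held a UMI of it. In thinned cells its share was 7.82% of CCR9-zero T cells (7.18 to 8.49) and 1.11% of the members (0.303 to 2.81). *HBA* also has near-identical copies, so its counts are uncertain. The other genes among the 10 with the smallest ratios were *GZMB*, described above, *SERPINA1*, a protease inhibitor, *ZEB2*, *GZMM*, *CX3CR1* and *CTSW* of cytotoxic cells, *TGFBR3* and the T cell receptor segment *TRBV7-3*.

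Helper genes were checked because the class is called helper-like. Of 13 tested genes of helper function, 0 were higher and 3 lower (*CD5*, *TNF* and *TNFSF14*), with a median of -0.07. *CD4* itself was at 169 CPM (152 to 188) against 175 CPM (170 to 180), and *CD28*, a costimulatory receptor, at 51.1 CPM (41.6 to 62.0) against 52.7 CPM (50.1 to 55.5). *CD40LG*, the ligand that helps B cells, was at 37.1 CPM (29.1 to 46.5) against 53.6 CPM (50.9 to 56.4). *LTB*, a lymphotoxin chain, was at 1191 CPM (1144 to 1240) against 939 CPM (928 to 950). None of 12 was called with cytotoxic cells left out, with 0 higher, 0 lower and a median of -0.20.

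Genes of named helper subsets were read with the limit that the rule removes cells with a *FOXP3* or *CCR6* UMI from the class, while the comparison group kept 155 cells with *FOXP3* and 468 with *CCR6*. Of 12 tested Tfh genes, 0 were higher and 4 lower (median -0.41), of 7 Th1 genes 0 and 2 (-0.32), of 8 Th17 genes 0 and 1 (0.14), of 4 Th2 genes 0 and 0 (0.03), and of 8 Treg genes 0 and 3 (-0.31). Against cells with neither UMI, 0 of 6 Th17 genes were higher and 1 lower (0.20), and 0 of 7 Treg genes and 2 (-0.39). With cytotoxic cells left out, 0 of 4 Th1 genes were lower (-0.07), so the calls of *TBX21* and *IFNG* ended, and 3 of 11 Tfh and 2 of 8 Treg genes were. *PDCD1*, the checkpoint receptor PD-1, was at 36.1 CPM (28.2 to 45.4) against 138 CPM (134 to 142.5). With cytotoxic cells left out, *PDCD1* was at 24.1 CPM against 55.8 CPM, a log2 ratio of -1.21 (-1.70 to -0.76). *IL17A*, the Th17 cytokine, had 0 UMIs in the members. The low *KLRB1*, a C-type lectin of Th17 and innate cells, at 49.6 CPM (40.3 to 60.3) against 162.5 CPM (158 to 167), was the Th17 list's lower gene. *GATA3*, the Th2 regulator, was at 73.6 CPM (62.2 to 86.5) against 70.6 CPM (67.5 to 73.8).

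Genes of naive and of memory T cells were read side by side. Of 14 tested naive genes, 1 was higher (*PECAM1*) and 2 lower, among them *PLAC8*, with a median of 0.07, while of 15 memory genes 1 was higher (*S100A6*) and 6 lower, with a median of -0.54. *LEF1*, a transcription factor of naive T cells, was at 154 CPM (138 to 172) against 103 CPM (98.9 to 106). *S100A4*, a calcium-binding protein that rises with memory, was at 1090 CPM (1045 to 1137) against 3074 CPM (3054 to 3095), whereas its relative *S100A6* was at 811 CPM (772 to 852) against 528 CPM (519 to 536). A pair of S100 genes thus differed in opposite directions. With cytotoxic cells left out, 0 naive genes were higher and 4 of 14 lower (median -0.32), with the intervals of *PECAM1* and *LEF1* spanning 0, and 0 memory genes were higher and 4 of 15 lower (median -0.06), as *S100A6* fell under the 1.5-fold limit at 0.42. *LMNA*, a nuclear lamina gene, was at 9.01 CPM (5.34 to 14.2) against 38.8 CPM (36.5 to 41.2).

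Of 16 tested activation and immediate early genes, *JUN* was higher, at 1317 CPM (1267 to 1368) against 681 CPM (671 to 691), and *NR4A2* lower, with a median of -0.08. Of 12 T cell receptor signalling genes 0 were higher and 2 lower (*LCK* and *THEMIS*, median -0.31), of 10 Tr1 and innate genes 0 and 7 (median -1.06), of 10 coreceptor lineage genes 0 and 2 (*RUNX3* and *TOX*, median -0.23), and of 10 cycling genes 0 and 2 (median -0.23). *RUNX3*, a factor of CD8 lineage and cytotoxic cells, was at 37.1 CPM (29.1 to 46.5) against 104 CPM (101 to 108). Its log2 ratio with cytotoxic cells left out went from -1.49 to -0.36 (-0.79 to 0.05), an interval that includes 0, and 0 of the 10 coreceptor lineage genes and 0 of the 12 T cell receptor signalling genes were called. Of the Tr1 and innate genes 5 of 10 were then lower, and *NR4A2* was no longer called. *MKI67*, a proliferation marker, was found in 6 of the 380 members (1.58%) against 2.81% of CCR9-zero T cells, and after thinning in 0 of 361 against 1.48%, where a count of 0 allows up to 1.02% of cells with a UMI at that depth.

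Against other gates of the same sort, the markers were highest in the CCR9+ cells. They were chosen for being high in *CCR9* cells of these data, and the other gates exclude *CCR9* UMIs, so this order only describes the class. All 4 gates had CD3 UMIs and no *CCR9* or *FOXP3* UMI. They were 453 CCR6+ cells, 295 CXCR5+ cells, 776 CCR7+LEF1+ cells with no *CCR6* or *CXCR5* UMI, and 1227 CX3CR1+GZMB+ cells, with median depths of 4779, 5022, 4242 and 3406 UMIs. *LZTFL1* was at 49.1 CPM in the members against 11.5, 9.16, 9.04 and 0.413 CPM, and *ICAM2* at 263.8 CPM against 182, 142.5, 158 and 39.7 CPM. *ITGA1* was at 68.1 CPM against 45.7, 21.8, 25.5 and 4.96 CPM. The intervals of the members lay above those of all 4 gates for these genes and for *SOCS2*. Against the CCR6+ cells, *ICAM2* had a log2 ratio of 0.54 (0.35 to 0.72) and *ITGA1* of 0.58 (0.20 to 0.95). Both were under the 1.5-fold limit.

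The CCR6+ cells, a Th17-like gate, were near in depth to the members. Of 4627 genes tested, 17 were at least 1.5-fold higher in the CCR9+ cells (0.367%) and 140 lower (3.03%). *LZTFL1*, *EVA1C*, *RHOB*, *NIT2* and *BAIAP3* were among the 8 highest, with log2 ratios of 2.09 (1.47 to 2.75), 1.11, 1.0, 1.04 and 0.98. *THY1* was at 0.15 (-0.13 to 0.44) and *UPP1* at 0.39 (-0.01 to 0.78), intervals that include 0. The same held for *DSE* at -0.04 (-0.48 to 0.40) and *BLVRA* at 0.22 (-0.16 to 0.60). *ITGB1* led the lower genes at 55.1 CPM against 260 CPM (240 to 281), a ratio of -2.24 (-2.54 to -1.95), followed by *LMNA* and *TGFBR3*. *GZMB* was at 215.5 CPM in this gate and 167 CPM in the members. *IL23R*, the receptor for a Th17 cytokine, was at 3.51 CPM (1.41 to 7.22) against 11.9 CPM (7.99 to 17.1).

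Against the CXCR5+ cells, 82 of 4012 genes were higher (2.04%) and 242 lower (6.03%). The higher genes included *LZTFL1*, *THY1*, *ITGA1*, *UPP1*, *EVA1C*, *SOCS2* and *TNFSF13B*, the cytokine BAFF, at 35.6 CPM against 9.73 CPM. *RHOB* was not among them, at 94.6 CPM against 107 CPM (92.3 to 123.5), a ratio of -0.18 (-0.48 to 0.12). The 8 lowest held immediate early genes, with *EGR1* at 51.6 CPM (42.1 to 62.5) against 756 CPM (716 to 798), and B cell genes, with *MS4A1* (CD20) at 25.03 CPM against 315 CPM and *CD79B* at 28.5 CPM against 261 CPM. All 7 genes of the B cell list were higher in the CXCR5+ gate, with *MS4A1* the most abundant and none at 0, and their part in this comparison was not tested.

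Against the CCR7+LEF1+ cells, a naive-like gate, 87 of 5537 genes were higher (1.57%) and 84 lower (1.52%). *RHOB*, *LZTFL1*, *THY1* and *UPP1* were among the 8 highest, with ratios of 2.04, 2.44, 1.74 and 1.70. So were *MAMU-DRA*, an MHC class II chain, at 163 CPM against 60.6 CPM, and *IGHM*, the IgM heavy chain, at 50.1 CPM against 15.1 CPM. All 7 B cell genes were detected in both groups and summed to 125 CPM in the members against 67.1 CPM, with *CD79A* the most abundant, and their part in this comparison was not tested. *PLAC8* was among the lowest, at 27.0 CPM against 195 CPM. *ITGB1* was lower here too, at -1.75 (-2.06 to -1.46), and *SOX4*, a factor of recent thymic emigrants, was at 4.51 CPM (2.06 to 8.55) against 31.0 CPM (25.5 to 37.2). The levels of *PLAC8* and *SOX4* in the members were thus far below those of the naive-like gate.

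**Figure D4:**
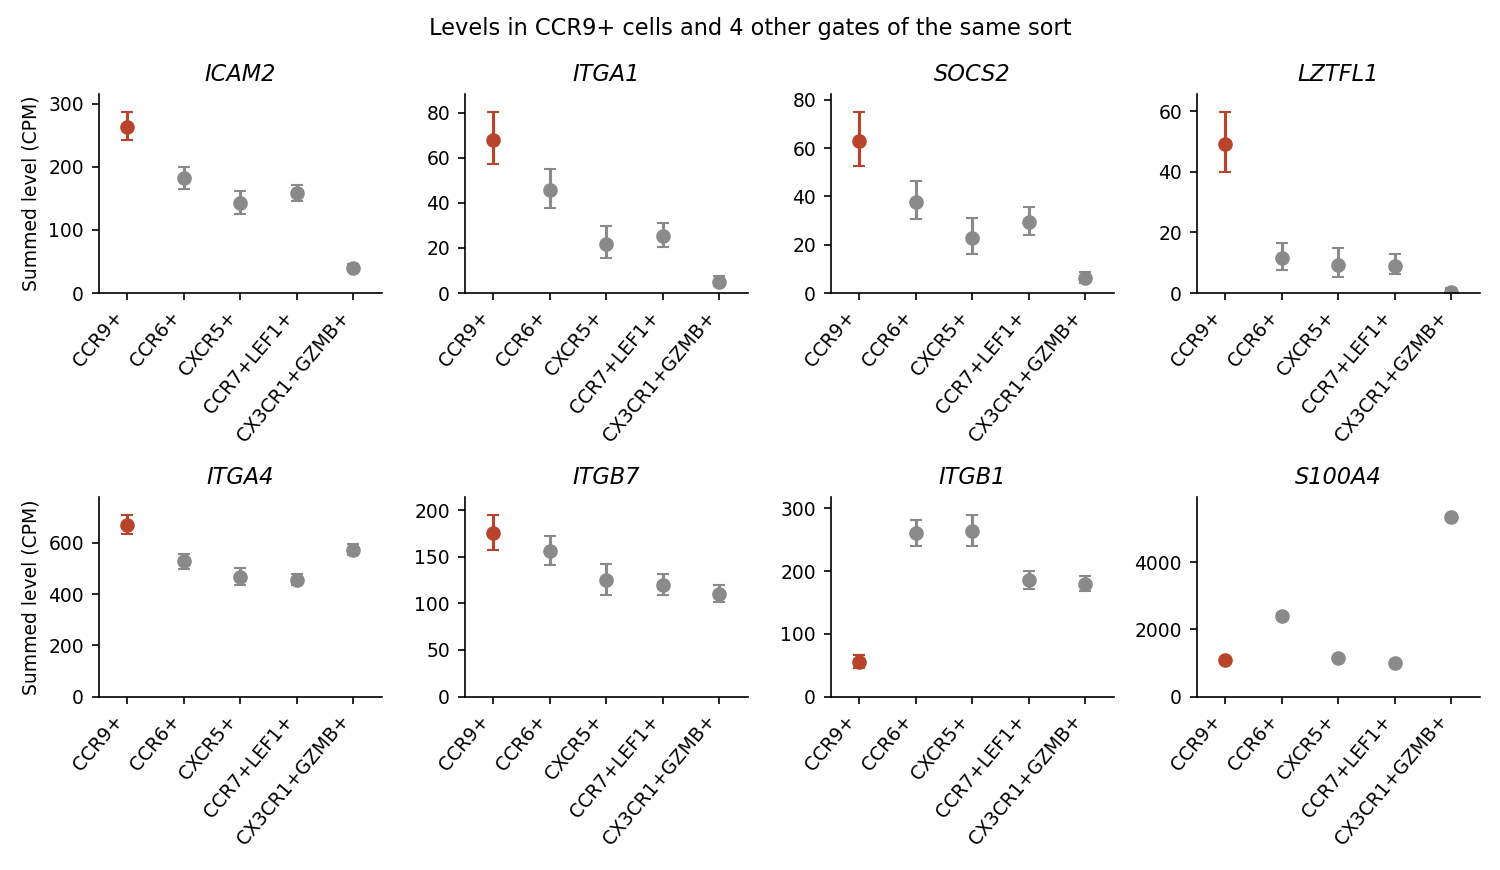
Summed level in CPM (vertical axes, from 0) of 8 genes in the CCR9+ cells (red) and in 4 other gates (grey, horizontal axes). Points are levels and bars exact 95% Poisson intervals; *LZTFL1* is at 49.1 CPM in CCR9+ cells and at most 11.5 CPM elsewhere, and *ITGB1* is lowest in CCR9+ cells at 55.1 CPM.

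The surface tags were not used by the rule. The CD4 tag had a median of 472.5 UMIs per cell in the members (quartiles 395 and 594, 10th and 90th percentiles 315 and 818) and 377 in CCR9-zero T cells (281 and 491). The CD8 tag had a median of 446 UMIs (253 and 727, 149 and 1238) against 333 (186 and 556). The quartile ranges overlapped widely for both tags.
Tag counts per 1000 RNA UMIs were 115 against 109 for CD4 and 124 against 118 for CD8, beside the deeper RNA of the members, and the part of depth in the tag difference was not tested. With a limit set at 191 UMIs for CD4 and 330.5 for CD8, which 90% of B gene cells did not exceed, 97.6% of the members (95.6 to 98.9) passed for CD4 and 62.9% (57.8 to 67.8) for CD8. Both limits were passed by 62.4% (57.3 to 67.3), against 47.5% (46.4 to 48.7) of CCR9-zero T cells, 69.5% of CCR6+ cells and 48.5% of CCR7+LEF1+ cells. In CD8 tag, 141 of the 380 members did not exceed the 90th percentile of B gene cells, and 237 members passed both limits. The members' lower quartile of CD8 tag (253) lay above the upper quartile of B gene cells (215). Their 10th percentile (149) lay near the median of B gene cells (139.5). Whether the 141 cells carry CD8 on their surface was not tested.

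**Figure D5:**
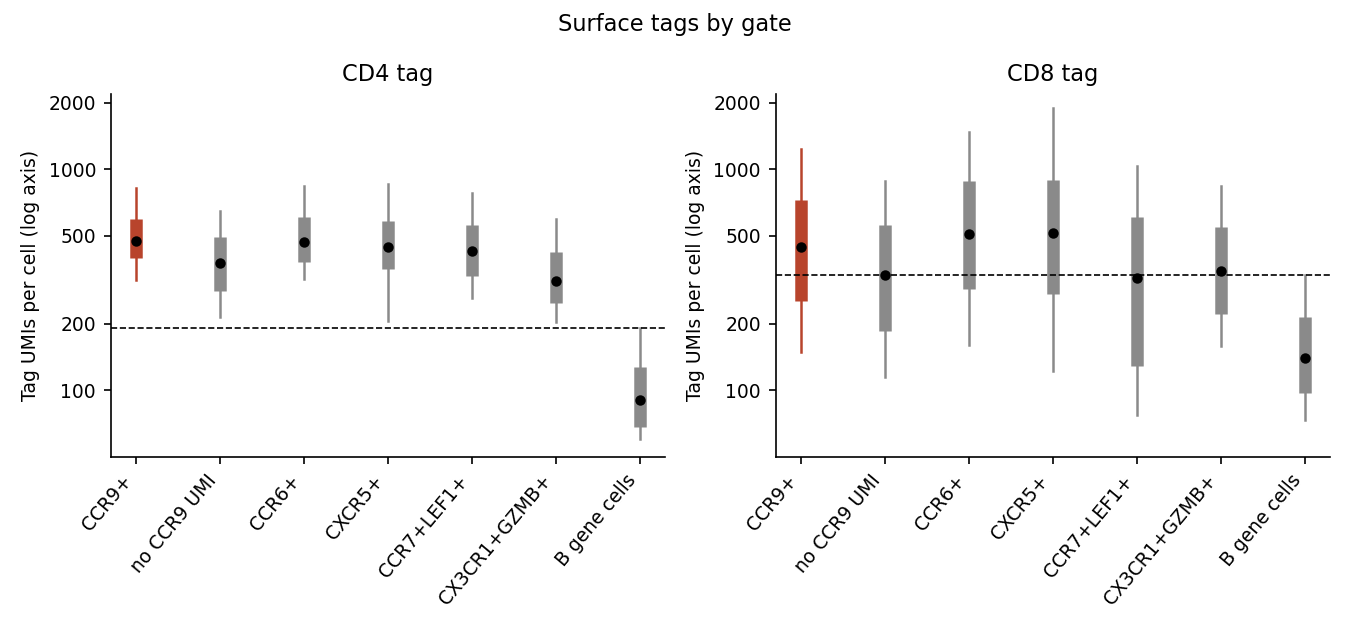
CD4 tag (left) and CD8 tag (right) UMIs per cell on log axes (vertical) by group (horizontal); dots are medians, thick bars quartiles, thin lines the 10th to 90th percentiles, and the dashed line the tag limit. The median CD8 tag of the CCR9+ cells (446) lies between those of CCR9-zero T cells (333) and CCR6+ cells (507).

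Members above and at or below the CD8 tag limit were compared in the markers. *ICAM2* was at 262 CPM (236 to 291) in the 239 cells above and 267 CPM (229 to 311) in the 141 others, *LZTFL1* at 47.6 and 52.2 CPM, *ITGA1* at 63.0 and 79.1 CPM, and *ITGA4* at 671 CPM in both. *SOCS2* was higher above the limit, at 73.2 CPM (59.6 to 89.1) against 41.1 CPM (26.9 to 60.3) with intervals that just overlap, and *ITGB7* was lower above it, at 156 CPM (136 to 178) against 217 CPM (182 to 256). *CD8A* was at 256 CPM (230 to 284) above and 57.0 CPM (39.9 to 78.9) below, in the direction of the tag. *GZMB* was at 211 CPM (187 to 237) above against 71.2 CPM (51.9 to 95.3), and *CCR9* was at 305 CPM (277 to 336) against 432 CPM (382 to 486). Only 43 members held a *GZMB* UMI, so a few cells can set its level on each side. *CD8B*, the second chain of the αβ coreceptor, had 20 UMIs in all members, or 10.0 CPM, and a *CD8A* UMI without *CD8B* was seen in 186 cells. A *CD8B* UMI was seen in 19.

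Markers of other cell types were read in the members. All 7 B cell genes were detected, with 0 of 5 tested called (median 0.07) and a summed level of 125 CPM against 100.3 CPM in CCR9-zero T cells. *CD79A*, the most abundant, was at 49.6 CPM (40.3 to 60.3) against 32.2 CPM (30.2 to 34.4), and *MS4A1* at 25.03 CPM against 29.1 CPM. A UMI of *CD79A* or *MS4A1* was found in 45 members (11.8% against 5.97%, and 7.76% against 3.59% thinned), and 9 had 3 or more. In the 335 members without one, *ICAM2* was at 279.6 CPM, *LZTFL1* at 53.8 CPM, *SOCS2* at 66.9 CPM and *ITGA1* at 68.7 CPM, at least as high as in all 380.
The other lists were near 0. Of the defining genes of plasmacytoid dendritic cells, which also use CCR9, *CLEC4C* and *IL3RA* had 0 UMIs, and the list summed to 11.5 CPM against 17.6 CPM. The 7 monocyte genes summed to 14.5 CPM against 10.8 CPM, with *CD68* the most abundant and *FCN1*, *S100A8* and *S100A9* at 0. The NK list summed to 16.5 CPM against 78.5 CPM, nearly all *KLRF1* and with *NCAM1* at 0, the 5 platelet genes had 0 UMIs, and the red cell list summed to 9.01 CPM against 261 CPM.

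T cell receptor segments were spread over the members. Of 25 named *TRAV* segments 23 had a UMI in them, and of 21 *TRBV* segments 20. The most frequent *TRBV* segments were *TRBV9* in 34 cells (8.95% against 5.46% of CCR9-zero T cells, not thinned) and *TRBV5-1* in 27 (7.11% against 4.83%). The most frequent *TRAV* segment was *TRAV12-2* in 20 cells (5.26% against 7.62%). *TRAV30* was in 14 cells, or 3.68% (2.03 to 6.10) against 1.91% (1.60 to 2.26), intervals that overlap. Its log2 ratio of levels was 1.05 (0.66 to 1.42), an interval that counts UMIs and not cells. *TRAV19* was also in 14 cells, or 3.68% against 10.8%, with a ratio of levels of -2.54 (-3.20 to -1.95).

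A *CCR9* UMI was also found in T cells with *CCR6*. Of 547 T cells with a *CCR6* and no *FOXP3* UMI, 17.2% (14.1 to 20.6) had one, against 5.64% (5.10 to 6.22) of the 6736 with neither UMI, and after thinning the shares were 8.75% (6.47 to 11.5) and 3.38% (2.95 to 3.86). Among T cells with *CXCR5* the thinned share was 2.99% (1.38 to 5.60), with *FOXP3* 3.09% (1.01 to 7.06), and with both *CCR7* and *LEF1* 5.23% (3.96 to 6.77). Detection of *CCR9* was thus more frequent in CCR6+ cells than in T cells with neither *CCR6* nor *FOXP3* at equal depth, and those cells lie outside the class by its rule.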

How the data were processed

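The authors deposited a raw count matrix of UMIs for 35432 genes and 2 antibody tags in 7923 barcodes, with replicates neither made nor pooled. For these 2 libraries the submitters' processing notes name the build Mmul_10, STAR 2.5.1b, Cell Ranger 3.1.0 and Seurat 3.1.3. The annotation release and the use of strand in counting are not given in the sources used here. No doublet removal before deposit is stated and no doublet caller was run here; the limit of 4000 genes, and alternatives without the deepest 5% of cells or without cells holding B cell genes, stand in for one.

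From these deposited counts, cells with 200 to 4000 genes and at most 20% of UMIs from 13 named and 2 unnamed mitochondrial genes were kept (7601, with 31007499 UMIs). The study's filter on genes seen in few cells was not applied. Counts were summed per group and divided by the group's total to give CPM, and genes with at least 50 UMIs in either group were ranked by the ratio of CPM plus 10, with 1.5-fold as the limit. Results on some genes are not reported here. Cells were thinned without replacement to 2000 UMIs for shares. Genes were named as the markers, the members of 28 lists and the 15 largest and 10 smallest ratios, among genes with a symbol, leaving out the rule's genes. The class, markers, lists and gates were chosen with earlier results of these data known. Symbols came from the file for 23817 genes and from a name table for 720, leaving 10895 without. Of 331 named or listed genes, 317 were placed on Mmul_10 by RefSeq symbol. Python 3.11.15, numpy 2.4.6, scipy 1.17.1, pandas 2.3.3 and matplotlib 3.10.9 were used. The interval code was checked on simulated data. Alternatives changed the cell filters, the rule, the comparison group, the depth handling, the pseudocount and the minimum count.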

Additional observations from a re-analysis of the deposited data

Results flagged for a closer look

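The 97 T cells with UMIs of both *CCR9* and *CCR6* lay in neither group compared above, and hold a signal in data outside the main comparison. Their median depth was 5204 UMIs. *LZTFL1* was at 44.6 CPM (29.6 to 64.4) in them, against 49.1 CPM (39.8 to 59.8) in the CCR9+ cells and 11.5 CPM (7.65 to 16.6) in the CCR6+ cells. *ITGA1* was at 110 CPM (85.5 to 139), above both the CCR9+ cells with 68.1 CPM (57.1 to 80.5) and the CCR6+ cells with 45.7 CPM (37.6 to 55.0). *EVA1C* was at 33.4 CPM (20.7 to 51.1), against 57.6 CPM and 26.7 CPM. No test was possible with 1 library.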

How the results depend on the processing

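The limits are 1 animal and 1 library, a rule that reads 1 sparse gene, and a comparison group rich in cytotoxic cells. Of 106 alternative values, 76 stayed within the main interval or within 1.5 times the main count, 30 moved and 0 changed sign. Among these values only the log2 ratios of *ICAM2*, *ITGA1*, *SOCS2* and *LZTFL1* could change sign. *CCR7*, whose ratio turned to -0.39 with cytotoxic cells left out, was not among them. No paired analysis was possible because there was 1 sample of each kind. Leaving out a replicate was not possible for the same reason. Leaving out cells by a longer list of B cell genes is not reported here.

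With at least 2 *CCR9* UMIs the class had 173 cells, the *ICAM2* log2 ratio was 1.35, and 165 genes were higher and 637 lower. Weighting the comparison to the members' depth gave 1.05 for *ICAM2* and 1.56 for *SOCS2*. The mean over cells of each cell's CPM gave 1.33 for *ICAM2*, 2.04 for *ITGA1*, 2.20 for *SOCS2* and 169 higher genes. Thinning gave 1.47 for *ICAM2*, 2.25 for *SOCS2*, 197 higher genes and 766 lower. Without cells holding a *CX3CR1* or *GZMB* UMI, 336 members remained, *ICAM2* was at 0.72, *ITGA1* at 1.196, *SOCS2* at 1.40 and *LZTFL1* at 2.40, with 44 genes higher and 145 lower. A pseudocount of 1 CPM gave 411 higher and 1377 lower genes, and one of 50 CPM gave 15 and 99. The class had 329 cells with a mitochondrial limit of 10%, 336 without the 5% of kept cells with most UMIs, 335 without cells holding *CD79A* or *MS4A1* UMIs (a setting chosen after seeing the data), and 481 when *FOXP3* and *CCR6* UMIs were allowed. Without thinning, *CCR9* was found in 28.7% of cells with 2 or more companion genes, against 20.5% with it. The median tags ranged from 392 to 477 UMIs for CD8 and from 460.5 to 481 for CD4.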
